A study of Homo sapiens with 12 samples.

Results

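Cysteine and glutathione metabolism was followed through 8 genes in HK-2, an immortalised human cell line of kidney proximal tubule origin. The genes were CTH, CBS, CHAC1, GCLC, GCLM, GSS, GSR and GGCT. They were chosen with earlier results of these data known, as were the pathway lists used below. Every probe set annotated with exactly 1 of these symbols was taken. Each gene was represented by its brightest probe set on average across the 12 arrays. All 8 genes were on the array, with 17 probe sets, and all 8 passed the signal filter, among 10050 genes tested. The filter asked for at least 5 log2 units on at least 3 arrays. Cells had received Ra, a compound, or the vehicle, and total RNA was hybridised to Affymetrix expression arrays, 3 per group. The 4 groups were Ra for 48 h, control (vehicle) for 48 h, Ra for 12 h and control for 12 h, all HK-2 cells in the same medium with EGF, hydrocortisone and insulin, treated near confluence. HK-2 is a single line, and treatment and time are the only differences between groups that the labels state. Whether the groups also differed in handling is not known. The labels call the 3 samples of a group biological replicates without saying what was repeated. The p-values therefore rest on the spread between such samples, which limma pools over the groups in a fit. The identity of Ra and its dose are not stated in the labels. Values are GCRMA log2 expression values, in which 1 unit is a 2-fold change. In such bulk RNA, fewer cells of a kind and less RNA per cell cannot be told apart.

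Cells obtain cysteine either by importing cystine or by transsulfuration, the route that turns homocysteine from the methionine cycle into cysteine. CBS joins homocysteine to serine to form cystathionine, and CTH splits cystathionine to release cysteine. Glutathione, the main small thiol of the cell, is then made in a pair of steps: glutamate-cysteine ligase (GCLC, the catalytic subunit, with GCLM, the modifier subunit) joins glutamate to cysteine, and GSS adds glycine. GSR reduces oxidised glutathione with NADPH, CHAC1 cleaves glutathione in the cytosol, and GGCT acts on gamma-glutamyl amino acids and so returns the glutamate part. CTH and CHAC1 are known as targets of the stress-induced transcription factor ATF4, and GCLC, GCLM and GSR as targets of NRF2. The proximal tubule is a kidney segment known for active glutathione turnover.

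RefSeq start-site windows (GRCh38.p14, 250 bases before to 50 after the annotated start) matched 5 of the 8 genes: CTH, CBS, CHAC1, GCLC and GCLM. The 250 bases before the start are printed for CTH and CHAC1, which had the largest differences at 48 h, and for GCLC and GCLM, subunits of 1 enzyme whose values differed. They lie at chr1:70411018-70411267 (CTH, plus strand), chr15:40953221-40953470 (CHAC1, plus strand), chr6:53545102-53545351 (GCLC, minus strand) and chr1:93909431-93909680 (GCLM, minus strand). Each is written 5′ to 3′ on the strand of its gene, with matches to 1 of 3 searched motifs in capitals.
CTH: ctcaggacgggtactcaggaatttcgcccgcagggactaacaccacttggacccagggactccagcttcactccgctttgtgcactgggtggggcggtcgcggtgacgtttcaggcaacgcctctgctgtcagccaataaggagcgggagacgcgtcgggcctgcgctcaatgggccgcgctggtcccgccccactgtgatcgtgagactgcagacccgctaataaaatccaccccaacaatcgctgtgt
CHAC1: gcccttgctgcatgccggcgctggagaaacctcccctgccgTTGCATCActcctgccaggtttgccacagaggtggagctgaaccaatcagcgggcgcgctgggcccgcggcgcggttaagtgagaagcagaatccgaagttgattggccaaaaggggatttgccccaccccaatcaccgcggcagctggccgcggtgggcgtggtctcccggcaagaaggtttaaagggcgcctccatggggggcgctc
GCLC: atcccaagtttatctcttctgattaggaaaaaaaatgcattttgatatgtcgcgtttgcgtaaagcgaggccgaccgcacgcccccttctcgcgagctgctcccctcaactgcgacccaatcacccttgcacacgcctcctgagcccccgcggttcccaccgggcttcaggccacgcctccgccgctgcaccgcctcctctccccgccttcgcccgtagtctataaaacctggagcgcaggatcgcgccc
GCLM: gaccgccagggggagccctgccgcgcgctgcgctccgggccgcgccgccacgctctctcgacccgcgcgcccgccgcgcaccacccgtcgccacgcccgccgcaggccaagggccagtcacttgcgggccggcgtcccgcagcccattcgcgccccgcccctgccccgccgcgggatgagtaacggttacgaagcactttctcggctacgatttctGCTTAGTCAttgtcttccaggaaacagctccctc

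Both strands were searched for TGATGNAA, the core of a C/EBP-ATF composite element, for TGACGTNA, a CRE-like element, and for TGACNNNGC, the core of an antioxidant response element; the last 2 can overlap. CHAC1 held 1 match to the composite core on its reverse strand, the bases TTGCATCA at -209 to -202 from the start. Such a match was present in 3.62% of all 35116 windows of the table. GCLM held 1 match to the antioxidant core, GCTTAGTCA, at -34 to -26, also on the reverse strand. The first of 3 windows of CBS held another, GCGCGGTCA, at -83 to -75, and 13.3% of all windows hold that core. The windows of CTH and GCLC held none of these letters, and the CRE-like element, present in 3.01% of all windows, was in none of the members' windows. These are matches of letters in short windows, not sites shown to be bound.

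The arrays differed in spread. At 48 h the SD among replicates of the median gene was 0.43 with Ra and 0.22 in control cells, while at 12 h it was 0.12 in both groups. Ra 48 h replicate 2 stood apart, with an SD over its probe sets of 2.81, while the remaining 11 arrays had 3.09 to 3.14. Its median gene lay 0.64 log2 units below the control mean at 48 h. ACTB, read at both ends of its transcript to gauge RNA integrity, gave a 3′ minus 5′ difference of 0.79 to 1.13 with Ra and 0.90 to 1.19 in control cells at 48 h. Of 16 proximal tubule markers 13 had a probe set of 1 symbol, and SLC4A4, GATM and PAX8 passed the filter. All 6 epithelial markers passed, and 1 of them was called at 48 h. Fibroblast markers passed in 3 of 6 cases, and endothelial and immune markers in 0 of 5 and 0 of the 4 measured. The summed levels of tubule, epithelial and fibroblast markers overlapped between Ra and control cells at both times, except epithelial markers at 12 h. Those summed to 14.69 to 14.80 log2 units with Ra and 14.50 to 14.68 in control cells. Tubule markers at 12 h overlapped only barely, at 11.2237 to 11.5974 with Ra and 11.5957 to 11.7535 in control cells. The part of these markers in the results was not tested. The part of replicate 2 in the results was not tested beyond the fits without it given beside them.

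At 48 h, 4 of the 8 genes fell with Ra: both genes of transsulfuration, the glutathione-cleaving CHAC1 and the ligase subunit GCLC. In limma's fit of all 12 arrays, 12.6% of all genes were called in this comparison at an adjusted p under 0.05, and 9.56% were called lower. The median of the 8 differences was -0.77 log2 units, against -0.20 over all genes. Because the 8 genes were chosen with earlier results of these data known, comparing them with all genes is descriptive and not a test. For CTH, CBS and GCLC all Ra values lay below all control values, 3 of 8 genes; 24.0% of all genes had no overlap, 18.6% lower and 5.37% higher with Ra. Higher calls made up 3.00% of all genes.

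CTH stood at 10.78, 6.01 and 6.36 log2 units in Ra 48 h replicates 1 to 3, against 12.14, 12.07 and 11.23 in control 48 h replicates 1 to 3. All Ra arrays lay below all control arrays, and replicate 1 lay far nearer to the control cells than the others. The difference was -4.10 ± 0.91 log2 units (SE, n = 3 per group), 17.1-fold lower, with a limma adjusted p of 0.0207. CBS stood at 8.84, 7.42 and 7.76 with Ra, against 9.91, 9.34 and 8.86 in control cells. Its highest Ra value lay only just under its lowest control value. The difference of CBS was -1.36 ± 0.35 (2.57-fold lower, limma adjusted p = 0.0306). A near-identical copy of CBS, called CBSL, is listed by RefSeq as a synonym, and the probe sets were not checked against it.

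CHAC1 stood at 7.43, 3.73 and 3.55 with Ra, against 7.83, 7.35 and 8.69 in control cells. The groups overlapped, because Ra 48 h replicate 1 lay within the control range and the other Ra arrays lay under 5 log2 units. CHAC1 reached 5 log2 units on those 3 control arrays and Ra 48 h replicate 1 only, so it passed the signal filter through the arrays on which it was high. Its difference was -3.05 ± 0.81 with a limma adjusted p of 0.0341, and its size depends on GCRMA's background model, which shrinks low signals. GCLC stood at 8.81, 8.02 and 8.25 with Ra, against 9.54, 9.10 and 9.05 in control cells. These groups did not overlap, and GCLC fell by 0.87 ± 0.23 (1.83-fold, limma adjusted p = 0.0306).

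The other 4 genes did not pass. GCLM stood at 10.24, 9.05 and 10.49 with Ra, against 10.51, 10.35 and 10.89 in control cells, a difference of -0.66 ± 0.32 with a limma adjusted p of 0.172. Its Ra arrays 1 and 3 lay close to or within the control range and replicate 2 below it. GSS, the glutathione synthetase, stood at 10.17, 9.57 and 10.56 with Ra, against 10.48, 10.43 and 10.40 in control cells, a difference of -0.34 ± 0.23. GSR, the reductase, differed by -0.25 ± 0.22, and GGCT, the cyclotransferase, by -0.07 ± 0.14. For GSS, GSR and GGCT as well the lowest of the 6 values belonged to Ra 48 h replicate 2, the array whose median gene was also low. After each array was centred on its median the difference was -0.0926 for GSS and -0.0002 for GSR, and that of GGCT turned to 0.18. The 4 called genes kept their calls after that centring, with CTH at -3.85, CBS at -1.11, CHAC1 at -2.80 and GCLC at -0.62. The share of all genes called was then 28.5%, against 12.6% without centring.

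**Figure D1:**
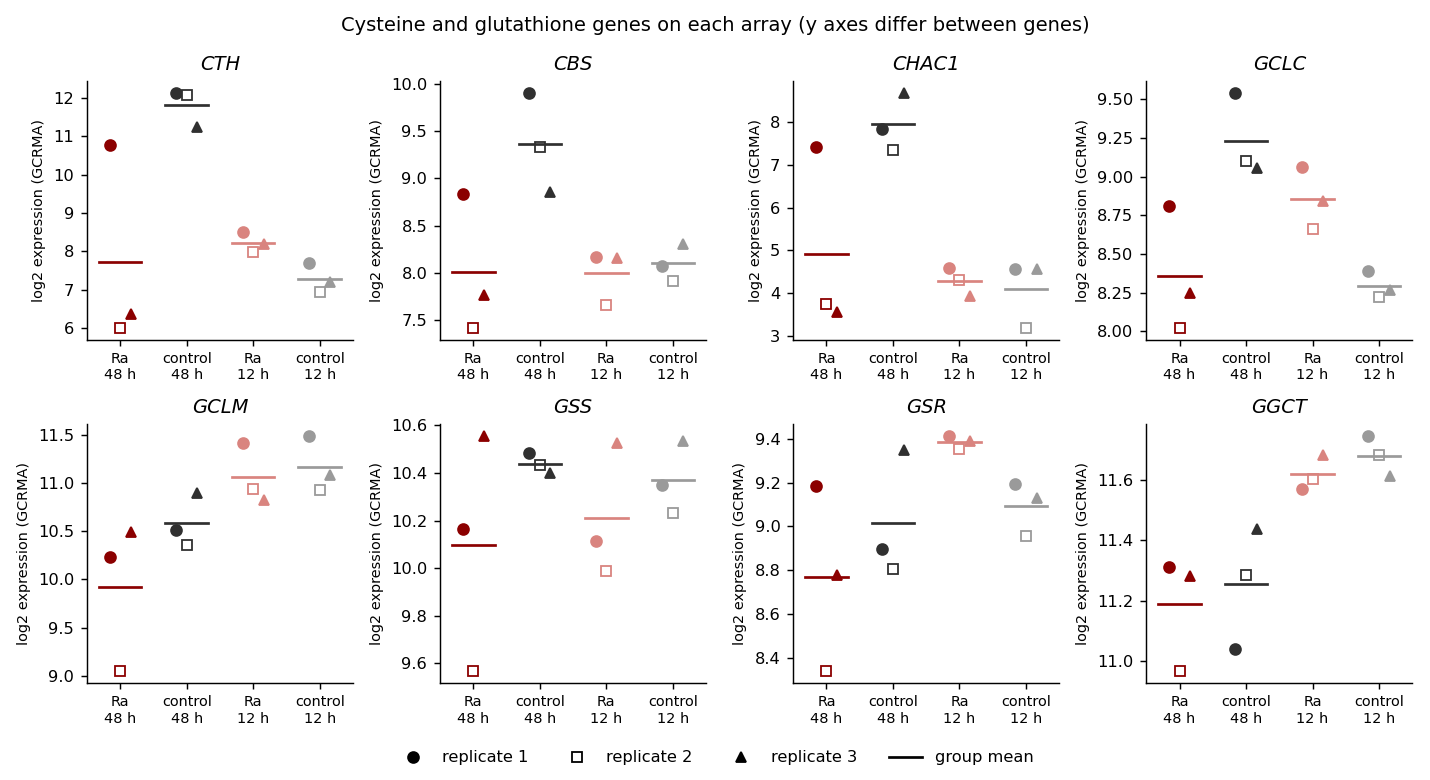
Log2 expression of the 8 genes on each of the 12 arrays, 1 panel per gene with its own y axis; symbols mark replicates and horizontal lines group means (n = 3). In the Ra 48 h group, CTH of replicate 1 stands at 10.78 and those of replicates 2 and 3 at 6.01 and 6.36, while control 48 h arrays stand at 11.23 to 12.14.

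Within the Ra group at 48 h the arrays did not agree on the size of the change. Relative to the mean of control cells at 48 h, CTH lay at -1.03 in Ra replicate 1, at -5.81 in replicate 2 and at -5.46 in replicate 3. CHAC1 lay at -0.53, -4.22 and -4.41 in the same order, and CBS at -0.53, -1.95 and -1.61. GCLC lay at -0.42, -1.21 and -0.98. In each of these 4 genes replicate 1 was the one nearest to the control cells, so the SD with Ra was 2.66 for CTH and 2.19 for CHAC1, against 0.50 and 0.68 in control cells. Relative to control cells at 12 h, Ra 48 h replicate 1 was higher by 3.49 for CTH and 3.33 for CHAC1, whereas replicates 2 and 3 lay at -1.28 and -0.93 for CTH and at -0.37 and -0.56 for CHAC1.

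**Figure D2:**
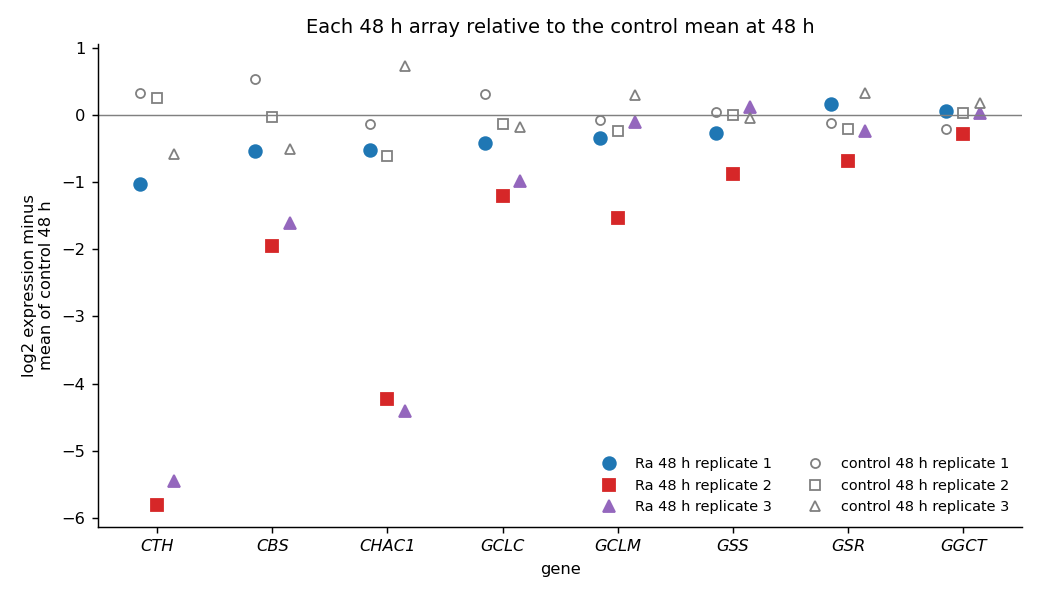
Log2 expression on each 48 h array minus the mean of the 3 control arrays of 48 h, for the 8 genes; filled symbols are Ra arrays and open symbols control arrays. For CTH, Ra replicates 2 and 3 lie at -5.81 and -5.46 and replicate 1 at -1.03.

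The calls at 48 h rest on the 12 h arrays for part of their spread. When only the 6 arrays of 48 h entered, limma called 0 of the 8 genes and 0 of all genes (1748 had an unadjusted p under 0.05), with adjusted p from 0.193 for CTH to 0.237 for GCLC among those 4, each at an unadjusted p under 0.05. In the fit of 12 arrays 0 of the 4 calls were left without Ra 48 h replicate 3, and likewise if either replicate 1 or replicate 2 of the control cells at 48 h was dropped. The shares of all genes called were then 6.09%, 1.17% and 0.448%. Dropping Ra 48 h replicate 2 left 2 calls, while the share of all genes called was 19.3%. Dropping replicate 1 or replicate 3 of the control cells at 12 h also left 2, at shares of 6.89% and 7.26%. Leaving out each of the 12 arrays in turn, CTH stayed past the test in 9 cases, CBS in 8, GCLC in 7 and CHAC1 in 2, with every difference of these genes negative. Without the filter on low signals 0 of the 8 genes passed, where 1.65% of 19775 genes were called.

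The control cells themselves differed between the times, and the same 4 genes were called. In control cells at 48 h against control cells at 12 h, CTH, CBS, CHAC1 and GCLC rose, 4 of 8 genes, where 19.5% of all genes were called 9.37% higher and 10.1% lower. CTH stood at 12.14, 12.07 and 11.23 in control cells at 48 h, against 7.71, 6.95 and 7.21 in control cells at 12 h. The groups were far apart, by 4.53 ± 0.91 log2 units (23.1-fold, limma adjusted p = 0.00683). CHAC1 stood at 7.83, 7.35 and 8.69 at 48 h, against 4.57, 3.19 and 4.55 at 12 h. The difference was 3.85 ± 0.81 (limma adjusted p = 0.00869). All 12 h values were below the filter's 5 log2 units, the gene was tested only because of the arrays on which it was high, and the background model bears on the size. CBS rose by 1.27 ± 0.35 (adjusted p = 0.0254) and GCLC by 0.94 ± 0.23 (adjusted p = 0.0142). All 4 genes were without overlap between the times, as were 50.8% of all genes (24.8% higher and 26.0% lower at 48 h).

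The modifier subunit did not follow the catalytic one in control cells. GCLM stood at 10.51, 10.35 and 10.89 in control cells at 48 h, against 11.49, 10.93 and 11.09 at 12 h, a difference of -0.58 ± 0.32 that did not pass (limma adjusted p = 0.228). All its 48 h values lay below all its 12 h values. GGCT differed by -0.43 ± 0.14 (limma adjusted p = 0.0529), and also without overlap. GSS and GSR differed by 0.07 ± 0.23 and -0.08 ± 0.22. In the fit of the 6 control arrays alone, where 33.2% of all genes were called (16.6% in each direction), the same 4 genes rose and GGCT fell (adjusted p = 0.035). CTH and CHAC1 kept their calls with each of the 12 arrays left out in turn. The count was 2 without control 12 h replicate 2, control 12 h replicate 3 or control 48 h replicate 1. The shares of all genes called were then 8.95%, 7.84% and 8.24%, against 19.5% with no array left out. Control cells at 48 h are the reference of the Ra comparison at 48 h too, so the rise and the fall share those 3 arrays.

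In Ra-treated cells, 0 of the 8 genes passed between 48 h and 12 h, where 0 of all 10050 genes were called by limma and 1562 had an unadjusted p under 0.05. The difference of CTH was -0.51 ± 0.91, that of CHAC1 0.63 ± 0.81 and that of CBS 0.01 ± 0.35. The sign of these 3 differences turned when 1 array was left out. Without Ra 48 h replicate 1, CTH was at -2.04 with a limma adjusted p of 0.0288. GCLM stood at 10.24, 9.05 and 10.49 in Ra-treated cells at 48 h, against 11.41, 10.94 and 10.82 at 12 h, without overlap, and its difference of -1.13 ± 0.32 had a limma adjusted p of 0.175. GSR and GGCT did not overlap either, at -0.62 ± 0.22 and -0.43 ± 0.14. These 3 genes lay lower, where 19.5% of all genes had no overlap, 17.0% lower and 2.49% higher.

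At 12 h, in limma's fit of 12 arrays, 0 of the 8 genes passed (0.0299% of all genes were called). CTH stood at 8.50, 7.98 and 8.19 in Ra-treated cells, against 7.71, 6.95 and 7.21 in control cells. Every Ra value lay above every control value, and the difference was 0.94 ± 0.91 (limma adjusted p = 0.928). GCLC stood at 9.06, 8.66 and 8.84 with Ra, against 8.39, 8.22 and 8.26 in control cells. It too was without overlap, at 0.56 ± 0.23 (limma adjusted p = 0.589). GSR stood at 9.41, 9.35 and 9.39 with Ra, against 9.19, 8.96 and 9.13 in control cells, again without overlap. These 3 genes lay higher, where 35.3% of all genes had no overlap, 18.4% higher and 16.9% lower. CHAC1 stood at 4.59, 4.31 and 3.92 with Ra, against 4.57, 3.19 and 4.55 in control cells, all under 5 log2 units and overlapping. CBS, GCLM, GSS and GGCT had differences between -0.16 and -0.06.

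That fit shares its spread with the more variable 48 h arrays. With only the 6 arrays of 12 h, limma called 13.6% of all genes, 7.34% higher and 6.25% lower, and 2 of the 8 genes rose. CTH rose by 0.94 ± 0.21 (1.91-fold, adjusted p = 0.0298) and GCLC by 0.56 ± 0.12 (1.48-fold, adjusted p = 0.025). GSR, at 0.29 ± 0.09, had an adjusted p of 0.0701 in that fit. Same-numbered arrays deviated together at 12 h, and with the replicate number as a block limma also called GSR (adjusted p = 0.0433), so that 3 of the 8 genes rose, where 23.4% of all genes were called.

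The effect of Ra at 48 h minus that at 12 h was tested as an interaction, where 0.0199% of all genes were called. Of the 8 genes 0 passed. The difference of effects was -5.03 ± 1.29 for CTH (limma adjusted p = 0.105), -1.43 ± 0.32 for GCLC (0.0847), -3.23 ± 1.15 for CHAC1 (0.168) and -1.26 ± 0.50 for CBS (0.196). In CTH and GCLC all Ra arrays lay above all control arrays at 12 h and below them at 48 h. Of all genes, 18.4% lay higher without overlap at 12 h and 18.6% lower at 48 h. The share with both was not counted. With Ra 48 h replicate 1 left out the differences of effects of all 4 genes passed, where 10.4% of all genes were called. With Ra 48 h replicate 2 left out GCLC alone passed, where 3.18% were called. CTH and GCLC passed when replicate 3 of the control cells at 48 h was dropped, at a share of 5.69% of all genes. They also passed after quantile normalization or centring, at shares of 9.40% and 8.52%.

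**Figure D3:**
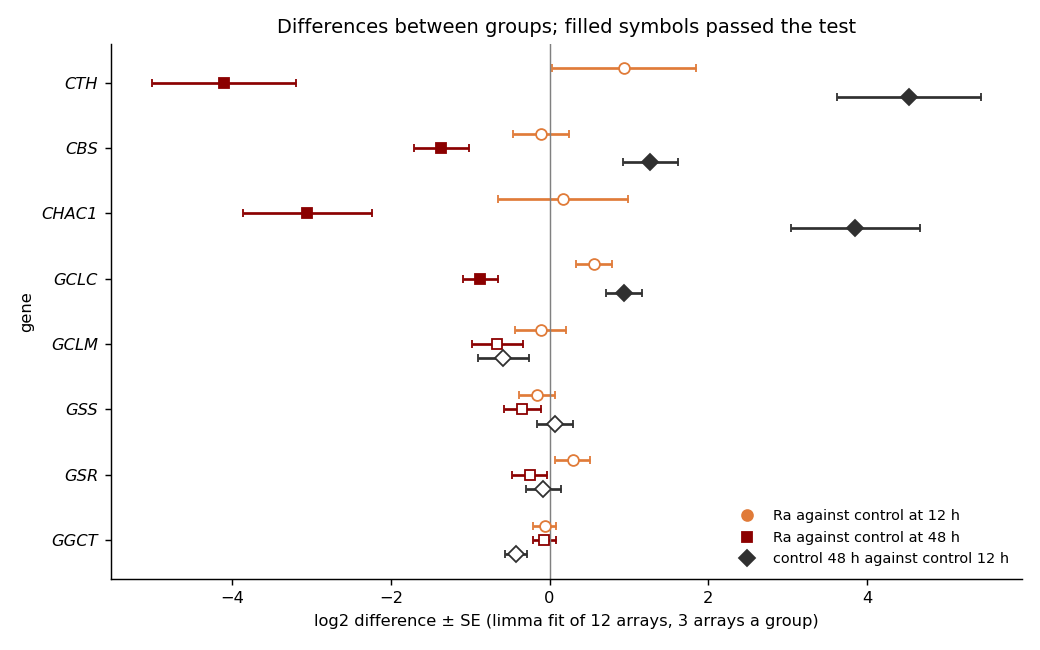
Log2 differences with SE for the 8 genes in 3 comparisons, from limma's fit of 12 arrays; filled symbols passed an adjusted p of 0.05. CTH, CBS, CHAC1 and GCLC lie left of 0 for Ra against control at 48 h (-4.10, -1.36, -3.05 and -0.87) and right of 0 for control 48 h against control 12 h (4.53, 1.27, 3.85 and 0.94).

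Other probe sets of the members mostly moved with the chosen ones. The second probe set of CTH gave differences of -4.64 at 48 h and 1.08 at 12 h, and the second of CBS -1.30 and -0.01. That of CTH lay at 3.58 and 3.52 in Ra 48 h replicates 2 and 3, and at 3.85 to 4.49 in control cells at 12 h. The sizes of its differences therefore depend on GCRMA's background model. The last CBS probe set, between 5.49 and 6.10 log2 units on all arrays, gave 0.23 at 48 h. With the mean of its probe sets CBS was not called at 48 h. Of the other GCLC probe sets 1 gave -1.08 and 0.42, and 1 lay at 1.86 to 1.92 on every array, at background. The other GCLM probe sets gave -0.84 and -0.48 at 48 h, and 0.02 and 0.20 at 12 h, where the chosen one gave -0.11. The second probe sets of GSS and GSR gave -0.31 and -0.42 at 48 h. CHAC1 and GGCT had 1 probe set each. Levels of different probe sets are not comparable with each other.

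Of 90 other genes of the pathway, in 9 lists, 60 passed the signal filter. At 48 h 8 of the 60 fell with Ra and 1 rose, with a median difference of -0.09, against the 12.6% called and the median of -0.20 over all genes. Cystine and cysteine transport held 4 of the 8 falls, from 6 tested genes. SLC7A11, the cystine-glutamate exchanger, stood at 10.31, 6.50 and 6.91 with Ra, against 11.50, 11.76 and 11.47 in control cells, a difference of -3.67 ± 0.84 (limma adjusted p = 0.022). As for CTH, replicate 1 of Ra lay closest to the control cells. Its partner chain SLC3A2 fell by 2.22 ± 0.41, the lysosomal cystine exporter CTNS by 1.48 ± 0.40 and the neutral amino acid transporter SLC1A4 by 1.01 ± 0.29. In control cells at 48 h against control cells at 12 h the same 4 genes rose, where 9.37% of all genes were called higher. SLC7A11 rose by 3.86 ± 0.84, SLC3A2 by 2.71 ± 0.41, CTNS by 1.84 ± 0.40 and SLC1A4 by 1.18 ± 0.29. Here too the rise and the fall share the control arrays of 48 h.

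The calls at 48 h among genes that use or regenerate glutathione, and in the remaining lists, stand beside 12.6% of all genes called. Of all genes, 9.56% were called lower and 3.00% higher. The mitochondrial glutaredoxin GLRX2 fell by 1.27 ± 0.23 (limma adjusted p = 0.0109), 1 of 8 glutaredoxins and related enzymes. Of 5 tested sources of NADPH, IDH1, the cytosolic isocitrate dehydrogenase, fell by 1.38 ± 0.23 and ME1, malic enzyme, by 0.97 ± 0.21. IDH1 stood at 11.86, 10.74 and 11.52 with Ra, against 13.07, 12.75 and 12.45 in control cells, so that replicate 1 of Ra did not reach the control range. In the methionine cycle 1 of 9 genes fell, AHCYL2, an adenosylhomocysteinase-like protein, by 1.26 ± 0.37. The one rise was ABCC3, an efflux pump for glutathione and glucuronide conjugates, which stood at 9.57, 9.72 and 9.68 with Ra, against 8.43, 7.86 and 8.55 in control cells. Its 3 Ra values lay close together and above all control values, at 1.37 ± 0.20 (limma adjusted p = 0.00823). Of 4 tested glutathione peroxidases, 12 glutathione transferases, 8 genes of cysteine and sulfide catabolism and 4 of the gamma-glutamyl cycle, 0 passed at 48 h. CHAC2, the constitutive relative of CHAC1, was among the last, at -0.50 ± 0.37.

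At 12 h 0 of the 60 genes passed in the fit of 12 arrays. In the fit of the 6 arrays of 12 h 7 rose and 3 fell, 10 of 60, where 13.6% of all genes were called. With the replicate block 15 of 60 were called, near the 23.4% of all genes called in that fit. ABCC3 rose by 0.93 ± 0.10 and SLC1A4 by 0.78 ± 0.12, and GLRX2 fell by 0.33 ± 0.07, while SLC7A11, at 1.10 ± 0.60, did not pass. In control cells at 48 h against 12 h, 13 of the 60 were called, 8 higher and 5 lower, near the 19.5% of all genes. Several genes known from the tubule's brush border or from the liver lay below the filter. GGT1, which starts the breakdown of glutathione outside the cell, reached at most 4.51 log2 units on any array. The highest value was 3.11 for the aminopeptidase ANPEP and 2.52 for CDO1, the cysteine dioxygenase. GGT1 was read here by 1 probe set, and probe sets with several symbols were not used.

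**Figure D4:**
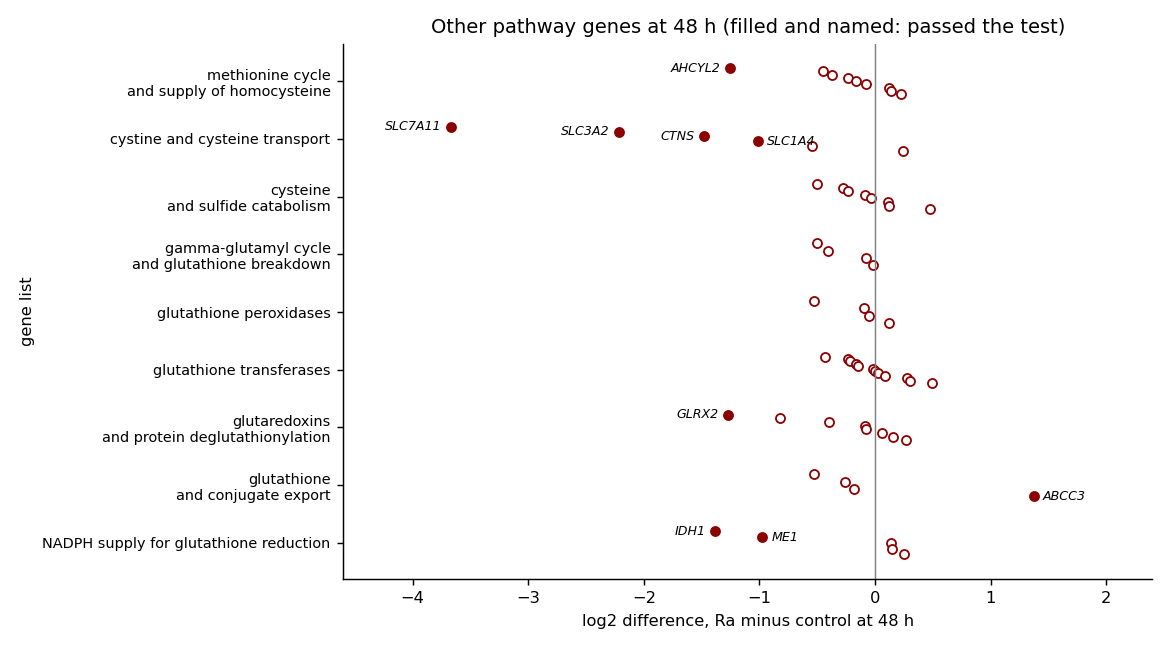
Log2 difference between Ra and control cells at 48 h for the 60 tested genes of the 9 other pathway lists, 1 point per gene; filled, named points passed limma's test (adjusted p under 0.05). SLC7A11 at -3.67 and SLC3A2 at -2.22 lie farthest to the left and ABCC3 at 1.37 farthest to the right.

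For each of the 4 genes called at 48 h, the 3 genes with the most similar profile over the 12 arrays were found by the root mean square difference between profiles centred on their own means. For CTH, whose SD over the 12 arrays was 2.21, they were ERN1 (0.53 log2 units), LURAP1L (0.54) and SLC7A11 (0.63). For CHAC1, with an SD of 1.93, they were CIART (0.72), SLC22A15 (0.72) and ERN1 (0.73). CIART and CHAC1 both averaged under 5 log2 units in every group except control cells at 48 h. GCRMA's background model bears on such low values. For CBS, with an SD of 0.73, they were YARS1 (0.14), SARS1 (0.15) and SHMT2 (0.18). For GCLC, with an SD of 0.46, they were SQSTM1 (0.14), SERPINB1 (0.16) and UBL3 (0.16). SQSTM1 averaged 11.66 in Ra and 12.45 in control cells at 48 h. At 12 h it averaged 12.19 in Ra-treated and 11.54 in control cells. CTH and CHAC1 differed from each other by 0.75 on this measure, and CBS and GCLC by 0.42. GCLC lay about as near to GSR and GSS, which were not called, at 0.43 each. GCLC and GCLM differed by 0.68. The measure depends on how widely each gene varied, so pairs of different SD are not comparable.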

How the data were processed

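Total RNA of 12 HK-2 samples was measured on Affymetrix arrays, 3 per group. The authors made the deposited log2 values with GCRMA, per the submitters' processing notes; its version is not given in the sources used here, nor which arrays were normalized together. GCRMA corrects background by probe sequence and shrinks low signals, so differences that involve values under about 5 log2 units depend on its model. The number of arrays limits the precision.

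Probe sets were named through the platform annotation (41097 of 54675 with 1 symbol). Those with at least 3 arrays at 5 log2 units were kept, the highest mean stood for its gene, and 10050 genes were tested with limma 3.58.1 in R 4.3.3: 4 group means over 12 arrays, eBayes with a trend on intensity, and adjusted p (Benjamini-Hochberg, all genes) under 0.05. Fits on the 6 arrays of a comparison were an alternative. The code was tested on simulated data. The members and lists were chosen with earlier results of these data known. Named pathway genes are up to 4 of each list with the largest difference among those past the test at 12 h or 48 h, with SLC7A11 and SLC3A2; GGT1, ANPEP, CDO1 and CHAC2 were named after their values were seen.

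Deviations of same-numbered Ra and control arrays had positive correlations at 12 h (0.182, 0.421 and 0.344) and mixed ones at 48 h (0.301, -0.219 and 0.097). The times were not cleanly separated, as replicate 1 had the higher value at 48 h. Numbers were taken as pairs at 12 h, but only the fits with a replicate block used them. The main fit did not. Figures were drawn with matplotlib 3.10.9.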

Additional observations from a re-analysis of the deposited data

Results flagged for a closer look

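In CTH every Ra array lay above every control array at 12 h and below every control array at 48 h, and the effect at 48 h minus that at 12 h was -5.03 log2 units. GCLC showed the same pattern, with a difference of effects of -1.43. The share of all genes with this pattern was not counted, so it may not be particular to these genes. Both were singled out because the arrays moved in opposite directions at the 2 times; the interaction did not pass limma's test in either gene (adjusted p = 0.105 and 0.0847).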

How the results depend on the processing

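With 3 arrays per group, 1 array decided several counts. Shares in brackets are of all genes called under the same setting. Of the 8 genes, Ra against control at 12 h called 0, and 1 with weights per array (23.5%) or per group (17.8%), 2 in the fit of 6 arrays (13.6%) and 3 with its replicate block (23.4%). At 48 h the 4 calls became 0 without the filter (1.65%), with weights per group or in the fit of 6 arrays (0% each), and 1 with its replicate block (1.30%). Fits of the 48 h arrays alone without 1 Ra array, added after seeing the data, called 2 without replicate 1 (0.706%) and 0 without replicate 2 or 3. Leaving out 1 array gave 0 to 4 (0.448% to 27.1%). The difference of effects (0) became 2 after quantile normalization or centring (9.40% and 8.52%), 4 with weights per array (44.4%) and 1 with the replicate block over all arrays (0.597%), with 0 to 4 when 1 array was left out. Ra 48 h against 12 h (0) became 3 with weights per array (7.29%) and 1, GCLM, in the 6-array fit with the replicate block (2.34%), with 0 to 1 when 1 array was left out. Control 48 h against 12 h (4) became 7 with weights per array (61.0%), with 2 to 6 when 1 array was left out (7.84% to 40.7%), so these counts moved with calls over the whole array. The replicate block within each time changed no member's call.

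Of the 60 pathway genes, the count at 12 h (0) became 1 after quantile normalization (1.51%), 13 and 11 with weights per array and per group, 10 in the fit of 6 arrays and 15 with its replicate block, and 0 to 1 when 1 array was left out. At 48 h (9) it became 5 without the filter, 20 after quantile normalization, 18 after centring, 34 and 0 with weights per array and per group, 0 in the fit of 6 arrays and 3 with its replicate block. The shares of all genes were 1.65%, 30%, 28.5%, 51.8%, 0%, 0% and 1.30% in that order, so the counts moved with calls over the whole array. The count was 1 to 17 when 1 array was left out, and 2, 0 and 0 in the 48 h arrays without Ra replicates 1, 2 and 3.

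Sign changes numbered 43, and 0 of them concerned a gene past the test in that comparison. With weights per array, Ra 48 h against 12 h gave -0.0984 for CBS, -0.30 for CHAC1 and 0.34 for GSS; Ra at 48 h gave 0.0334 for GCLM, 0.0448 for GSS and 0.0056 for GGCT; the difference of effects gave 0.0927, 0.27 and 0.0997 for these 3. After quantile normalization and centring GSS gave 0.0156 and 0.0844 for the difference of effects and 0.10 and 0.13 for Ra 48 h against 12 h. GGCT gave 0.10 and 0.18 at 48 h and 0.17 and 0.26 for the difference of effects. The mean of probe sets gave 0.0362 for GCLM at 12 h and 0.0114 for GSR in control cells over time, and leaving out cross-hybridising types gave -0.13 for CBS in Ra-treated cells over time. GGCT gave 0.0439 in the 48 h arrays without Ra replicate 2. With 1 array left out, ranges at 12 h were -0.20 to 0.0648 for CBS, -0.29 to 0.40 for CHAC1 and -0.29 to 0.0504 for GCLM, and at 48 h -0.17 to 0.0439 for GGCT. For Ra 48 h against 12 h they were -2.04 to 0.35 for CTH, -0.40 to 0.31 for CBS, -0.63 to 1.31 for CHAC1 and -0.34 to 0.15 for GSS. For control cells over time they were -0.0009 to 0.15 for GSS and -0.24 to 0.03 for GSR, and for the difference of effects -0.41 to 0.083 for GSS and -0.11 to 0.11 for GGCT. The cause of these changes was not tested.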
